A study of Mus musculus with 10 samples.

Results

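The mouse transcripts described here encode 10 enzymes that modify ribosomal RNA (rRNA) or, for FTSJ3, are homologous to such an enzyme of yeast. The genes are Rrp8, Fbl, Nop2, Emg1, Dimt1, Nat10, Nsun5, Mettl5, Zcchc4 and Ftsj3. They were found by their gene symbols among the 19935 genes that the arrays measured with at least 1 uniquely named probe set, and all 10 were present. A single probe set represented each gene apart from Fbl, which had 2, and for Fbl the brighter one was taken. Livers of 12-week-old mice lacking nucleomethylin (NML-KO, 5 animals) were compared with livers of wild-type mice of the same age (WT, 5 animals), with total RNA of each liver on 1 whole-transcript array. The labels give no treatment, strain, sex, litter or time of dissection. They also do not say which part of the gene was removed or in which cells.

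Ribosomal RNA is altered chemically at many positions while the ribosome is assembled in the nucleolus. Guide RNAs direct most ribose methylations and pseudouridines, whereas a small group of stand-alone enzymes each place a base methyl or acetyl group at 1 or a few fixed positions. Nucleomethylin, the product of Rrp8, is one of these enzymes. It methylates an adenosine of the large-subunit rRNA, and it also belongs to a nucleolar complex with the deacetylase SIRT1 and the histone methyltransferase SUV39H1 that silences rRNA genes. The comparison asks whether the lower Rrp8 signal of NML-KO livers goes with a change in the transcripts of the other enzymes.

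The Rrp8 signal was lower in all NML-KO livers, and none of the other 9 enzyme transcripts differed between genotypes past the threshold. On the log2 scale their differences lay between -0.18 for Nsun5 and 0.05 for Nop2, against -0.88 for Rrp8. The threshold was a Benjamini-Hochberg adjusted p of 0.05 in limma, which 0 of the 9 and 0% of all genes passed. Rrp8 itself therefore did not pass it over all livers. At an unadjusted p below 0.05 limma likewise called 0 of the 9, against 2.70% of all genes. It called 1 of the 9 in each of 2 of the alternative settings, Nsun5 without WT 3 and Emg1 among the livers NML-KO 1 to 3 and WT 1 and 2. The messenger RNA of an enzyme was measured here, and neither the enzyme's activity nor the modification on rRNA. In whole liver, fewer cells of a type and less RNA per cell cannot be told apart.

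RefSeq's promoter table (build GRCm38.p6) held 10 windows for 8 of the 10 genes, with none for Fbl and Nsun5. The window of the gene that was removed in these mice, and the windows with a match to a searched motif, are shown as the 250 bases before an annotated transcript start. Capitals mark the E-box CACGTG, the element that clock and MYC-family factors bind, and the ETS-factor motif CCGGAAG on either strand.
Rrp8, chr7:105737386-105737635, minus strand: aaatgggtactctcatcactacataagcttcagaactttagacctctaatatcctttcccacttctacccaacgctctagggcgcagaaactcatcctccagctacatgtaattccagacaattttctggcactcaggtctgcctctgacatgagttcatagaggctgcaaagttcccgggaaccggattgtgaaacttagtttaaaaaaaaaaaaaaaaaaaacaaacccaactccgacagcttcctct
Nop2, chr6:125131633-125131882, plus strand: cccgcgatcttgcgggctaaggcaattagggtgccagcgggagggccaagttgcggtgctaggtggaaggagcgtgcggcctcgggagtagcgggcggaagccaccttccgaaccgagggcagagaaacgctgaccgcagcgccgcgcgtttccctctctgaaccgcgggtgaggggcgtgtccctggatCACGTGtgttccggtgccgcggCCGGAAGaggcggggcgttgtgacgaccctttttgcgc
Emg1, chr6:124712179-124712428, minus strand: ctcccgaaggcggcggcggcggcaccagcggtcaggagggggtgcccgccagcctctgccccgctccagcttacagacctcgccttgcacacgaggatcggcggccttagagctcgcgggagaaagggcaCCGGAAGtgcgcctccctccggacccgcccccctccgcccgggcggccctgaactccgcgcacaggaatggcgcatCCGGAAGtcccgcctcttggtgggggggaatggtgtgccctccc
Nop2 held the single E-box, and Nop2 and Emg1 held the ETS motif, with no overlap between matches. The E-box occurs in 6.02% of all 32851 windows and the ETS motif in 6.91%. No window of the 10 held CCAAT (33.9% of all windows) or TATAAA (12.4%), each searched on both strands. The windows of the enzymes had a median of 61.8% G and C, against 52.4% over all windows. A second annotated start of Rrp8 had 76.8%, against 42.4% for the window shown. A match is only a string of letters and was not tested for binding.

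Rrp8 was the gene by which the labels could be checked. Its intensity was 127, 110, 101, 146 and 108 in NML-KO livers 1 to 5, against 238, 203, 228, 208 and 200.2 in WT livers 1 to 5. The brightest NML-KO liver, NML-KO 4, was thus below the dimmest WT liver, WT 5, and the genotypes did not overlap. On the log2 scale the means were 6.87 ± 0.22 in NML-KO livers and 7.75 ± 0.11 in WT livers (SD, n = 5 each), a difference of -0.88 (SE 0.10; limma adjusted p = 0.109 over all genes). With NML-KO 4 left out, the difference was -0.96 and its adjusted p in limma 0.0171. Rrp8 was the only one of the 10 enzymes without overlap between genotypes, and 0.406% of all genes had none. Among the means of all genes, that of Rrp8 was at percentile 61.5 in NML-KO livers and 75.0 in WT livers. The labels do not say which exons were removed or where the probes lie, so whether the remaining signal is transcript or background, and with it the true size of the fall, is unknown.

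Before the other enzymes are described, a division among the livers has to be given. The first principal component of the data within genotypes held 47.4% of the variance and parted NML-KO 1 to 3 and WT 1 and 2 from NML-KO 4 and 5 and WT 3 to 5. Dbp, a transcription factor gene driven by the circadian clock, had log2 intensities of 9.68 to 10.2 in the first-named 5 livers, called Dbp-high here, and of 6.20 to 6.60 in the other 5, called Dbp-low. Arntl, which encodes the clock activator BMAL1, had 5.55 to 5.90 in Dbp-high and 8.10 to 8.27 in Dbp-low livers. WT 2 also stood apart in fat tissue markers, whose mean relative to all genes was 0.84 there and between -0.95 and -0.72 in the other livers. The hepatocyte genes Alb and Cps1 were high in every liver, with log2 intensities of at least 14.3 for Alb and 13.7 for Cps1. Of 48 measured cell type markers 0 passed the adjusted threshold in limma, with 1 at an unadjusted p below 0.05 (the hepatocyte enzyme gene Tat). Kupffer cell markers had a mean relative to all genes of 0.82 to 2.06 in NML-KO livers and of 0.92 to 1.84 in WT livers.

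**Figure D1:**
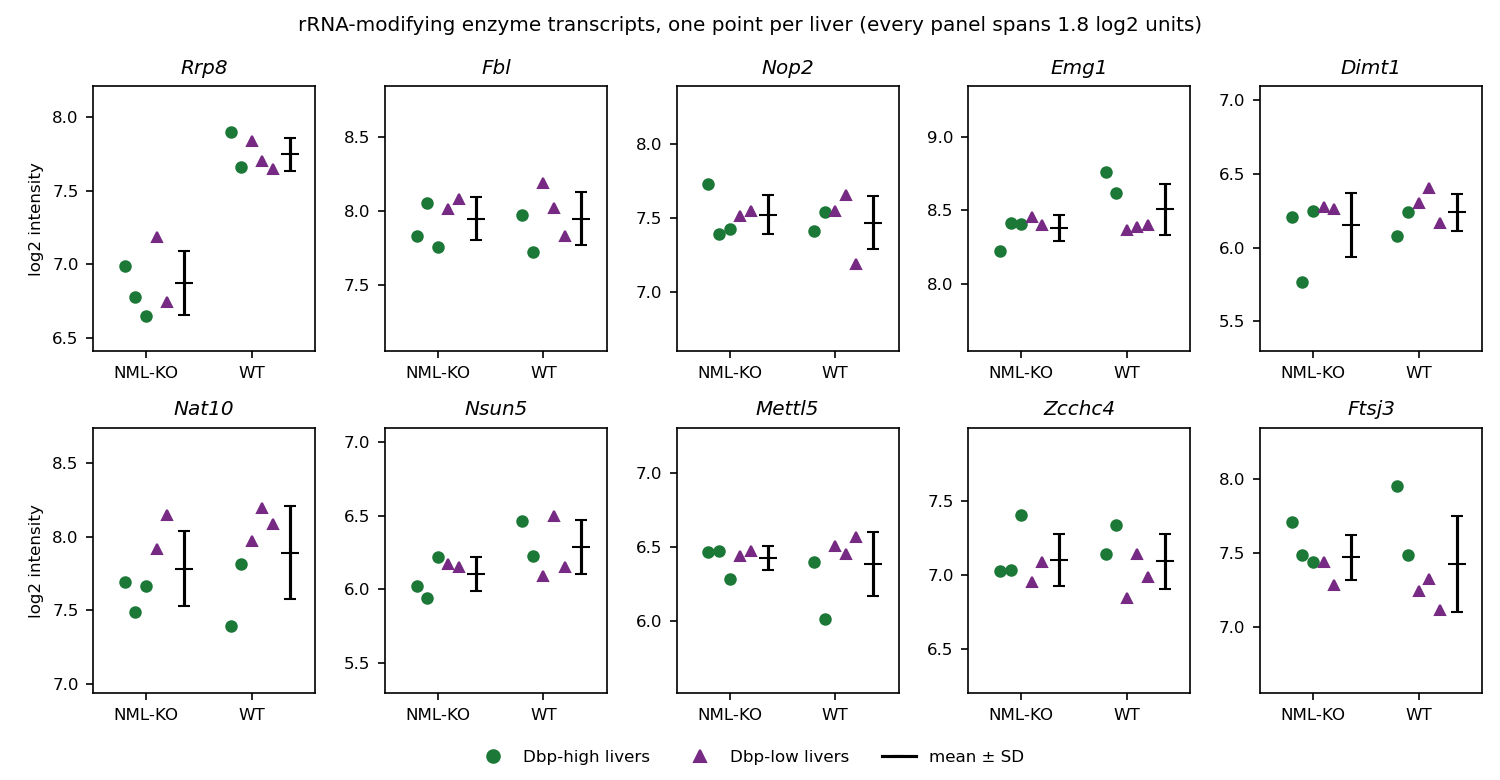
Log2 intensity of each enzyme transcript in each liver, with NML-KO livers left of WT livers in every panel; circles are Dbp-high and triangles Dbp-low livers, and black bars are the mean ± SD of 5 livers. Rrp8 alone separates the genotypes, and in the Nat10 panel the triangles lie above the circles in both genotypes.

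Fibrillarin, the product of Fbl, is the methyltransferase of the box C/D ribonucleoproteins and places the guided ribose methylations. Its log2 intensity was 7.83, 8.05, 7.75, 8.01 and 8.08 in NML-KO livers 1 to 5, against 7.97, 7.72, 8.19, 8.02 and 7.83 in WT livers 1 to 5. The genotypes overlapped almost wholly, with a difference of -0.0015 (SE 0.098) and a 95% confidence interval from 85.9% to 116% of the WT signal. The second Fbl probe set had a narrower spread, with 7.44 ± 0.08 in NML-KO livers and 7.46 ± 0.03 in WT livers (SD, n = 5 each) and a difference of -0.018 (SE 0.048). Both probe sets thus put the genotypes close together, though the labels do not say where the probes of either lie.

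Nop2 and Nsun5 encode related enzymes that methylate cytosines of the large-subunit rRNA. The Nop2 signal was between 7.40 and 7.73 in NML-KO livers and between 7.19 and 7.66 in WT livers, a log2 difference of 0.05 (SE 0.10). Nsun5 had the smallest unadjusted p of the 9 enzymes. Its log2 intensity was 6.02, 5.94, 6.22, 6.17 and 6.15 in NML-KO livers 1 to 5, against 6.46, 6.23, 6.09, 6.50 and 6.15 in WT livers 1 to 5. NML-KO livers 1 and 2 were the lowest of the 10, WT livers 1 and 4 were the highest, and the other livers of both genotypes were intermixed. The difference was -0.18 (SE 0.09), with a two-sided exact permutation p of 0.127 and an adjusted p of 0.999 in limma. The interval ran from 76.2% to 102% of the WT signal. The Nsun5 difference was -0.29 among Dbp-high and -0.08 among Dbp-low livers, and it stayed below 0 in all 21 alternative settings.

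The next enzymes act on the small-subunit rRNA: EMG1, which methylates a pseudouridine, DIMT1, which dimethylates a pair of adjacent adenosines near the end of the molecule, NAT10, which acetylates cytidines, and METTL5, which methylates an adenosine. Emg1 was at 8.23, 8.41, 8.40, 8.46 and 8.40 in NML-KO livers 1 to 5, against 8.76, 8.62, 8.37, 8.38 and 8.40 in WT livers 1 to 5. Only WT 1 and WT 2 were above all NML-KO livers, and both are Dbp-high. The difference over all livers was -0.13 (SE 0.09), or -0.062 without WT 1, with an exact permutation p of 0.270 (two-sided), whereas it was -0.34 among Dbp-high livers and 0.04 among Dbp-low livers. The test of that inequality, a term for genotype by Dbp-high or Dbp-low liver fitted across all genes, gave 0.38 (SE 0.11) with an unadjusted p of 0.00861 and an adjusted p of 0.739 in limma. For this term 6.49% of all genes had an unadjusted p below 0.05 and 0 passed the adjusted threshold, and Emg1 was the only one of the 10 enzymes below 0.05. The division into Dbp-high and Dbp-low livers was drawn from these same arrays, so the Emg1 values are given as a description.

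Dimt1 had log2 intensities of 6.21, 5.77, 6.25, 6.28 and 6.26 in NML-KO livers 1 to 5, against 6.08, 6.24, 6.30, 6.40 and 6.17 in WT livers 1 to 5. NML-KO 2 was well below all the other livers, and the difference of -0.09 (SE 0.11) was 0.0098 without it. Mettl5 was at 6.47, 6.47, 6.29, 6.44 and 6.48 in NML-KO livers 1 to 5, against 6.40, 6.01, 6.51, 6.45 and 6.57 in WT livers 1 to 5. Its lowest value was that of WT 2, the liver with the high fat tissue markers, and the part of those markers in this value was not tested. The Mettl5 difference was 0.04 (SE 0.10) with WT 2 and -0.05 without it.

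The spread of Nat10 within each genotype was larger than its difference between them. Its log2 intensity was 7.69, 7.49, 7.66, 7.92 and 8.15 in NML-KO livers 1 to 5, against 7.39, 7.81, 7.97, 8.20 and 8.08 in WT livers 1 to 5. In both genotypes the Dbp-low livers were the brighter ones, so that the Dbp-high livers lay at 7.39 to 7.81 and the Dbp-low livers at 7.92 to 8.20, without overlap. Nat10 was the only one of the 10 enzymes of which this was true, and 12.2% of all genes had no overlap between Dbp-high and Dbp-low livers. The division was drawn from the same arrays, so this is a description. Between genotypes the difference was -0.11 (SE 0.16) over all livers, from -0.23 (without WT 1) to -0.033 (without WT 4) with 1 liver left out, 0.014 among Dbp-high and -0.05 among Dbp-low livers. With the division as a term of the fit it was -0.019 (SE 0.09), with an adjusted p of 0.998 in limma.

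**Figure D2:**
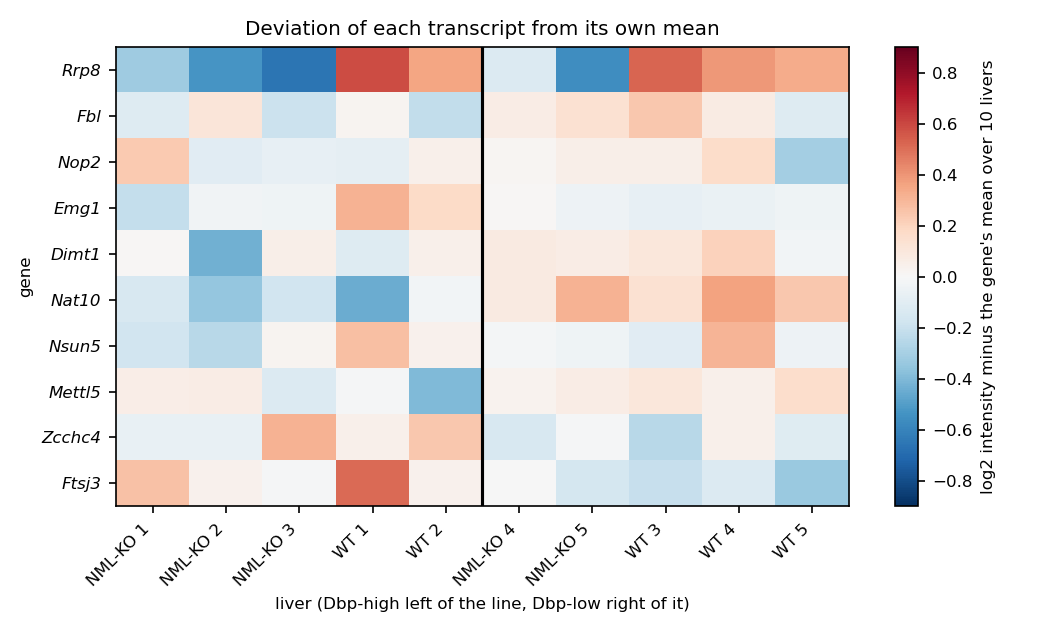
Log2 intensity of each enzyme transcript minus its own mean over the 10 livers, as colour, with Dbp-high livers left of the line and Dbp-low livers right of it, and NML-KO before WT on each side. The Rrp8 row follows genotype on both sides, while the Nat10 row is below its mean on the left and above it on the right.

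The remaining enzymes are ZCCHC4, which methylates an adenosine of the large-subunit rRNA, and FTSJ3, a ribose methyltransferase homologous to an rRNA-modifying enzyme of yeast. Zcchc4 was between 6.95 and 7.41 in NML-KO livers and between 6.85 and 7.34 in WT livers, with a difference of 0.01 (SE 0.11). Ftsj3 was at 7.71, 7.48, 7.44, 7.44 and 7.29 in NML-KO livers 1 to 5, against 7.96, 7.49, 7.24, 7.32 and 7.11 in WT livers 1 to 5. WT livers held both the highest value, in WT 1, and the 2 lowest, in WT 3 and WT 5. In an order opposite to that of Nat10, Dbp-high livers lay at 7.437 to 7.955 and Dbp-low livers at 7.113 to 7.441, with a small overlap. The Ftsj3 difference was 0.05 (SE 0.15), with -0.18 among Dbp-high and 0.14 among Dbp-low livers.

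**Figure D3:**
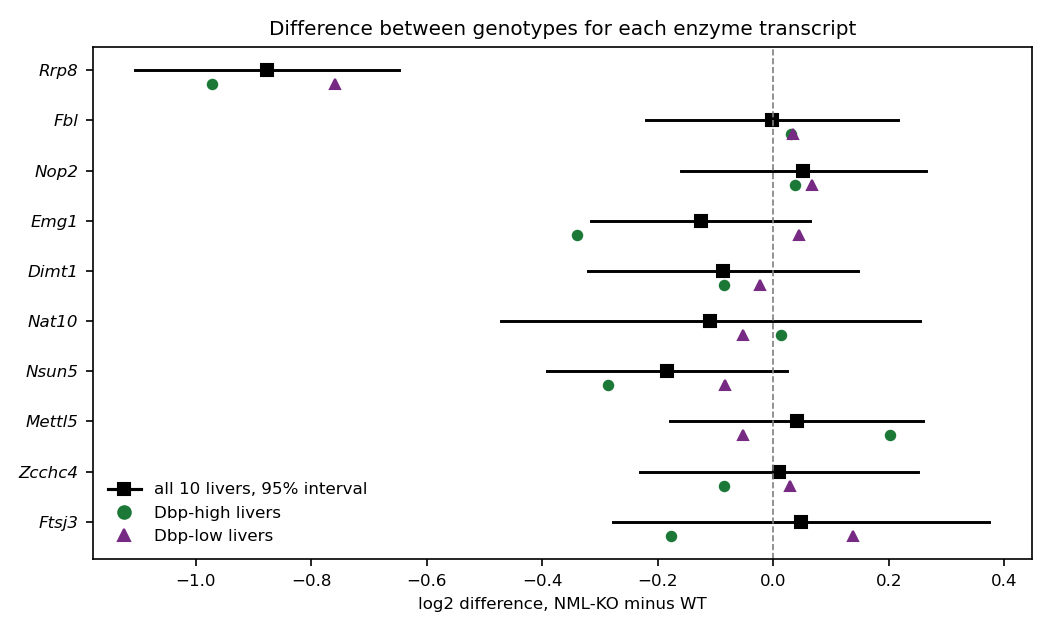
Log2 difference between NML-KO and WT livers for each enzyme transcript; squares with bars are the estimate over 10 livers and its 95% confidence interval, and circles and triangles are the differences among Dbp-high and among Dbp-low livers. The interval of Rrp8 lies wholly below 0, and the intervals of the other 9 enzymes contain 0.

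As a group the other 9 enzymes had a median difference of -0.0015, against -0.0065 over all genes, with 5 of 9 below 0, against 53.4% of all genes. The intervals show which differences in signal these arrays could have missed. That of Nat10 was the widest on the lower side, from 72.1% to 119% of the WT signal, and that of Ftsj3 reached highest, from 82.5% to 130%. A p that misses the threshold does not show that the transcripts were equal.

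Among themselves the 10 transcripts varied from liver to liver in different ways. Over the 45 pairs, deviations from the genotype means had a median Pearson correlation of 0.10 across the 10 livers, from -0.81 for Nat10 with Ftsj3 to 0.68 for Dimt1 with Nat10. The livers share the division into Dbp-high and Dbp-low, and the values are given as a description. The other 9 enzymes had correlations with Rrp8 on the same measure between -0.56 for Zcchc4 and 0.41 for Ftsj3. Of all genes, those with the deviations most like those of Rrp8 were Pdp1, a phosphatase gene of the pyruvate dehydrogenase complex (0.93), Ppm1h, another phosphatase gene (0.91), Nck2, an adaptor gene (0.91), Plxnb1, a semaphorin receptor gene (0.91), and Smim24 (0.89). None of these differed between genotypes past the threshold, with log2 differences between -0.03 for Plxnb1 and 0.12 for Nck2. They were picked as the highest among all genes across 10 livers, and whether unrelated genes would reach such values was not tested.

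The genes of related pathways gave no call either. In 8 lists with 73 genes, 69 were measured, 0 passed the adjusted threshold in limma. At an unadjusted p below 0.05 there was 1 (1.45%), against 2.70% of all genes. That one was Trmt1, a tRNA guanosine methyltransferase, at 7.98, 7.88, 8.20, 8.03 and 7.93 in NML-KO livers 1 to 5, against 8.43, 8.22, 8.17, 8.21 and 8.11 in WT livers 1 to 5. NML-KO 3 lay within the range of WT livers and the others were below it, a difference of -0.22 (SE 0.08; limma adjusted p = 0.999). The 18 tRNA methyltransferases had a median of -0.05, with 12 below 0, and Mettl1, a guanosine methyltransferase, had -0.21 (SE 0.14).

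Other modifiers of cytosolic rRNA and their adapters numbered 5, with a median of -0.03. Trmt112, the stabilising partner of METTL5 and of BUD23, had the largest difference of the 8 lists, at -0.32 (SE 0.22). Its log2 intensity was 9.41, 9.15, 9.62, 10.2 and 10.2 in NML-KO livers 1 to 5, against 9.67, 9.86, 10.3, 10.3 and 10.2 in WT livers 1 to 5. As with Nat10 the Dbp-low livers were all above the Dbp-high livers, and the difference was -0.37 among Dbp-high and -0.016 among Dbp-low livers. Bud23, a guanosine methyltransferase of the small-subunit rRNA, had -0.14 (SE 0.12), with -0.24 among Dbp-high and 0.07 among Dbp-low livers.

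No gene of the guide ribonucleoproteins passed the threshold. The 11 box C/D genes, which serve fibrillarin, had a median of 0.01. Of these Nufip1, an assembly factor gene, had the smallest p, at -0.20 (SE 0.12), and Ruvbl2, an ATPase gene of the assembly machinery, had 0.08 (SE 0.05). The 6 box H/ACA genes, which make pseudouridines, had a median of -0.0035, with 0.09 (SE 0.10) for the pseudouridine synthase gene Dkc1 and -0.03 (SE 0.07) for Gar1, a structural subunit. Enzymes of mitochondrial rRNA had a median of 0.01 over 9 genes, with -0.18 (SE 0.11) for Rpusd4, a pseudouridine synthase gene, and 0.09 (SE 0.08) for Mrm2, a ribose methyltransferase gene.

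Methylation outside rRNA also gave no call. The 8 genes of the writer complex that methylates mRNA adenosines and its relatives had a median of 0.03, with 0.09 (SE 0.06) for Virma, a scaffold subunit, and -0.11 (SE 0.08) for Mettl16, a separate methyltransferase. Of 14 genes that make and use the methyl donor S-adenosylmethionine, 11 were measured, with a median of 0.04. Gnmt, which disposes of excess donor by methylating glycine in liver, had -0.16 (SE 0.14). Nnmt, which methylates nicotinamide, had 0.31 (SE 0.32), with -0.27 among Dbp-high and 1.03 among Dbp-low livers, where NML-KO 4 had 12.3 against 10.6 to 11.1 in the other 4 livers. Of the silencing partners of nucleomethylin Suv39h1 was not analysed here, and Sirt1 had 0.12 (SE 0.19), with -0.12 among Dbp-high and 0.15 among Dbp-low livers.

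**Figure D4:**
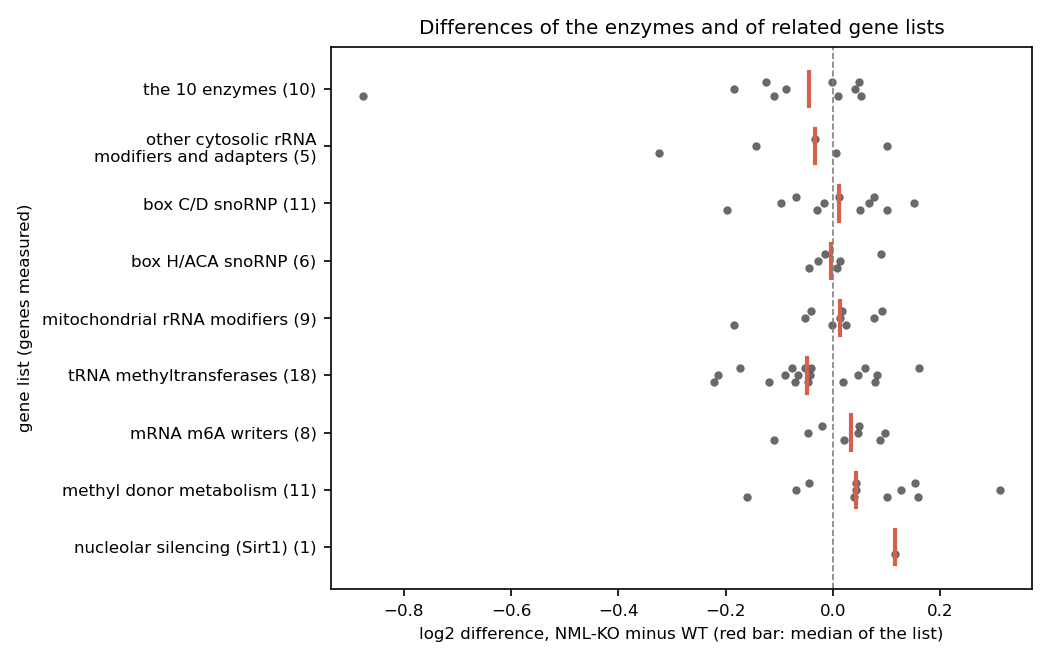
Log2 difference between NML-KO and WT livers for each measured gene of the 10 enzymes and of the 8 related lists, 1 point per gene, with a red bar at each list's median. Rrp8 at -0.88 is the lowest point, and the medians of the 8 lists lie between -0.05 and 0.12.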

How the data were processed

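The authors deposited 1 table of linear intensity values for 28815 probe sets on 10 arrays. The labels' protocols name Sepazol extraction of total RNA and biotin labelling of fragments, and the submitters' processing notes list genome build mm8. The sources used here do not give the method of background correction, normalization or summarization.

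Values were taken to log2. Probe sets with 1 platform symbol (21780) were kept, their symbols updated by gene ID in RefSeq (GRCm38.p6), and the probe set with the highest mean stood for each gene. NML-KO was compared with WT with limma 3.58.1 in R 4.3.3 over all 19935 genes, with Benjamini-Hochberg adjustment, a threshold of 0.05 and no filter, and single genes also by an exact permutation of the arrays. The 10 enzymes, the lists, the division into Dbp-high and Dbp-low livers (sign of the first principal component within genotypes) and the alternatives were chosen with earlier results of these data known. Named genes were the enzymes, the 2 genes of smallest p in every list, Dbp and Arntl, and the 5 genes most like Rrp8. Alb, Cps1 and Tat were named after their values were seen. Fold changes of dim genes may be compressed by any remaining background. The labels do not say more of the replicates than that each is a separate liver, and 5 arrays per genotype limit the precision. In simulated data of 19935 genes with 200 changed, 16.8% of genes changed 1.2-fold, 62.2% of those changed 1.5-fold and 89.2% of those changed 2-fold were recovered. So many changed genes ease the adjusted threshold, and recovery would be lower where few genes change. Each simulated gene varied independently of the others, whereas the first principal component of the real data within genotypes held 47.4% of the variance. The rates may therefore not hold for these livers. Same-numbered livers were not treated as pairs, since the labels give the numbers no meaning and not every pair of deviations correlated above 0.1.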

Additional observations from a re-analysis of the deposited data

Results flagged for a closer look

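In 60 groups of 5 livers (30 named genes), 6 held a liver far from the other 4, where chance gives about 5% of groups. Emg1 was 8.23 in NML-KO 1, against 8.40 to 8.46 in the other NML-KO livers. Dimt1 was 5.77 in NML-KO 2, against 6.21 to 6.28 in the others. Mettl5 was 6.29 in NML-KO 3, against 6.44 to 6.48 in the others. Nufip1 was 7.38 in NML-KO 2, against 7.82 to 7.94, and Dkc1 was 7.04 in NML-KO 3, against 6.71 to 6.74. Nnmt was 11.4 in WT 2, against 10.6 to 10.7 in the other WT livers. All values are log2 intensities.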

How the results depend on the processing

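Over 21 alternative settings, 0 of the other 9 enzymes passed the threshold in any, and their median difference stayed between -0.086 and 0.029. Rrp8 stayed between -0.99 and -0.76, with adjusted p from 0.0171 to 0.871. It passed only without NML-KO 4 (-0.96, adjusted p = 0.0171), where it was the 1 gene past the threshold, and with 1 array left out it ranged from -0.96 to -0.82 and the count from 0 to 1. With the replicate number as a block Rrp8 had -0.88 (adjusted p = 0.507), 0 genes passed. Deviations of same-numbered livers correlated at 0.44, 0.26, -0.42, 0.35 and 0.54 for numbers 1 to 5, number 3 being the only one with a Dbp-high and a Dbp-low liver, and 2 of 10 livers correlated best with the liver of their own number. The signs of small, uncalled differences turned in these settings, whose cause was not tested. Fbl had 0.029 with quantile normalization, 0.032 with the Dbp-high or Dbp-low division as a term, 0.030 among Dbp-high and 0.033 among Dbp-low livers. Zcchc4 had -0.00099 with median centring, -0.028 with the division as a term and -0.086 among Dbp-high livers. Mettl5 had -0.034 with array weights and -0.052 among Dbp-low livers, and Ftsj3 -0.020 with the division as a term and -0.18 among Dbp-high livers. Nat10 had 0.014 among Dbp-high and Emg1 0.044 among Dbp-low livers. With 1 array left out, ranges that crossed 0 were -0.058 to 0.059 for Fbl, -0.030 to 0.18 for Ftsj3, -0.13 to 0.0098 for Dimt1, -0.067 to 0.072 for Zcchc4, -0.053 to 0.085 for Mettl5 and -0.018 to 0.10 for Nop2. Ranges that stayed below 0 were -0.23 to -0.033 for Nat10, -0.16 to -0.062 for Emg1 and -0.23 to -0.13 for Nsun5. Nat10 moved by over 1.5 times without WT 1 (-0.23), WT 4 (-0.033), WT 5 (-0.061), NML-KO 2 (-0.036) or NML-KO 5 (-0.20), and Emg1 without WT 1 (-0.062). The deposited values hold no background measure, so how far each signal lies above background is unknown. The lowest intensity on any array was 18.4, in WT 3. With 18 subtracted from each intensity before log2, Rrp8 had -0.99 (adjusted p = 0.112 in limma).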
